A study of Mus musculus with 8 samples.

Results

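The 10 genes described here were listed as beta, delta and PP cell genes, though not all are limited to those cells. They are 6 hormone genes (Ins1, Ins2, Iapp, Sst, Ppy and Pyy) and 4 transcription factor genes (Mafa, Pdx1, Nkx6-1 and Hhex). They were taken by name, and each symbol matched 1 of the 75078 Ensembl genes in the deposited table. The libraries came from αTC1-6 cells, labelled as alpha cells. This mouse line is a cloned subline of a tumour line from mice that carried a viral T antigen gene under the glucagon promoter. The comparison was between 4 libraries from cells that received an empty plasmid (sample numbers 31, 32, 33 and 34) and 4 from cells that received a plasmid overexpressing Yy1 (45, 46, 47 and 48). Yy1 is a zinc finger transcription factor, and both groups were thus transfected cells of the same line. Transfection followed seeding by 24 h, in DMEM labelled 11 mM, and the time of harvest is not given in the sources used here. Separate cultures are not named in the labels. The p-values then measure only how these samples vary, and that variation may be technical. Any difference in the handling of the groups cannot be told apart from the plasmid.

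The pancreatic islet holds several hormone cells that arise from common progenitors. Beta cells make insulin, encoded in the mouse by Ins1 and Ins2, and release it together with amylin, the product of Iapp. Delta cells make somatostatin (Sst), PP cells make pancreatic polypeptide (Ppy), and peptide YY (Pyy) is found in several islet cell types. Pdx1, Nkx6-1 and Mafa are factors of the beta cell that bind or act on the insulin genes, and Hhex maintains the delta cell. Alpha cells make glucagon and keep the insulin program silent.

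The label of the line was borne out by its markers. Gcg, which encodes proglucagon, had a mean level of 21228 ± 547 CPM (counts per 1000000, scaled by TMM; SD, n = 4) in the empty plasmid libraries, and 21291 ± 372 CPM was the mean of the Yy1 plasmid libraries (SD, n = 4). It had the highest level per kb of transcript among 28127 genes with a known length and at least 1 count. Of 11 alpha cell identity genes 10 were tested and 1, Gc, had 0 counts in every library. Yy1 stood at 175 ± 5.33 and 5233 ± 464 CPM (SD, n = 4), which fits the labels. Library totals ran from 20679565 to 33347196 counts, lower on average with the empty plasmid (two-sided exact permutation p = 0.0571). A gene with 0 counts may therefore hold up to 3 counts, or between 0.0903 CPM in the largest and 0.147 CPM in the smallest library. Markers of exocrine and stromal cells were low. Summed levels in a library lay between 8.37 and 10.3 CPM for 11 acinar genes, between 17.7 and 23.1 CPM for 7 duct genes and between 1.47 and 3.16 CPM for 12 stromal, endothelial and immune genes. The defining genes Ptf1a (acinar) and Cftr (duct) had 0 counts in all 8 libraries.

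The insulin genes, to begin with the hormones, were silent at this depth. Ins1 (ENSMUSG00000035804) and Ins2 (ENSMUSG00000000215) had 0 counts in each of the 4 empty plasmid libraries and in each of the 4 Yy1 plasmid libraries. Over all 8 libraries a count of 0 allows up to 0.0129 CPM for either gene, with 3 counts taken as the limit. The exact 95% Poisson limit, used below for other members, is wider. For either insulin gene it was 0.0349 CPM in the pooled empty plasmid group and 0.0289 CPM in the pooled Yy1 plasmid group. In the transcripts of GENCODE mouse release 21, an older annotation than the one counted, the 2 genes share 47 words of 31 bases, 4.55% of the words of Ins1 and 3.27% of those of Ins2. Reads from such words cannot be given to one insulin gene with certainty. Genes outside that release were not searched, here or for the other members.

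Promoters are shown for 1 insulin gene that was at 0, for Iapp as a trace and for Nkx6-1, the member that was well expressed. In the RefSeq sequences of build GRCm38.p6, 8 of the 10 genes matched, all but Ins2 and Mafa. The 250 bases before the start of Ins1 (chr19:52264047-52264296, plus strand), Iapp (chr6:142298175-142298424, plus strand) and Nkx6-1 (chr5:101664712-101664961, minus strand) are printed with 2 motifs in capitals. These are TAAT, the core bound by homeodomain factors such as Pdx1 and Nkx6-1, and CATCTG, the E-box of insulin promoters that Neurod1 binds. Both were searched on both strands.
Ins1: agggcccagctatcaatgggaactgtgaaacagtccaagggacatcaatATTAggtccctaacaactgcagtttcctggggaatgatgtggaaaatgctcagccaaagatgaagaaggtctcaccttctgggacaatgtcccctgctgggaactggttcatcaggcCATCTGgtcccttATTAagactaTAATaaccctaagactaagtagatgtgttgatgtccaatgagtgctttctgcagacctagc
Iapp: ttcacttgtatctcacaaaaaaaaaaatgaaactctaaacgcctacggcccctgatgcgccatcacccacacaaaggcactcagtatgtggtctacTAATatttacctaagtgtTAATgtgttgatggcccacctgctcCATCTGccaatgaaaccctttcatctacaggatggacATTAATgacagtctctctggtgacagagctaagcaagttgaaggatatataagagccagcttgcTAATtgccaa
Nkx6-1: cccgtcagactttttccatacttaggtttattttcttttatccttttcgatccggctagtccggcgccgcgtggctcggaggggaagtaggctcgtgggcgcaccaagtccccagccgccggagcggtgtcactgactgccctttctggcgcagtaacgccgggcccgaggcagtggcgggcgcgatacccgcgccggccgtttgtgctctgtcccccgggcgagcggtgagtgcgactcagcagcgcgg
Ins1 held 3 matches of TAAT and 1 of CATCTG, and Iapp held 5 and 1. The Nkx6-1 window held 0 of either. TAAT occurs in 54.9% and CATCTG in 14.4% of the 32851 windows of this length in the table, and among the 8 matched genes TAAT was found in 3 (Ins1, Iapp and Sst) and CATCTG in 2. These few matches cannot be read against the shares of all windows. CCATNTT, a motif bound by YY1, was found in 12.4% of all windows and in 1 of the 8 genes, Pyy. A match is a description of these letters and does not show that a factor was bound.

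The other hormone genes apart from Iapp were at the edge of detection. Sst (ENSMUSG00000004366), the somatostatin gene, had 1 count in empty plasmid 34 and 1 in Yy1 plasmid 45, and 0 in the other 6 libraries. Pyy (ENSMUSG00000017311) had 1 count, in empty plasmid 31. Ppy (ENSMUSG00000017316), its neighbour in the same peptide family, had 0 in all. Pooled over a group, these genes lay at or below 0.00946 CPM, with exact Poisson limits at 95% of at most 0.0527 CPM. All such limits account for counting error alone, as several reads may come from one molecule. No direction can be read from 1 or 2 counts. The 5 hormone genes other than Iapp together had 3 counts in 8 libraries, against 4955875 counts of Gcg, or 0.605 per 1000000 Gcg counts. In a bulk library, a few cells with more of a transcript and many cells with less of it cannot be told apart.

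**Figure D1:**
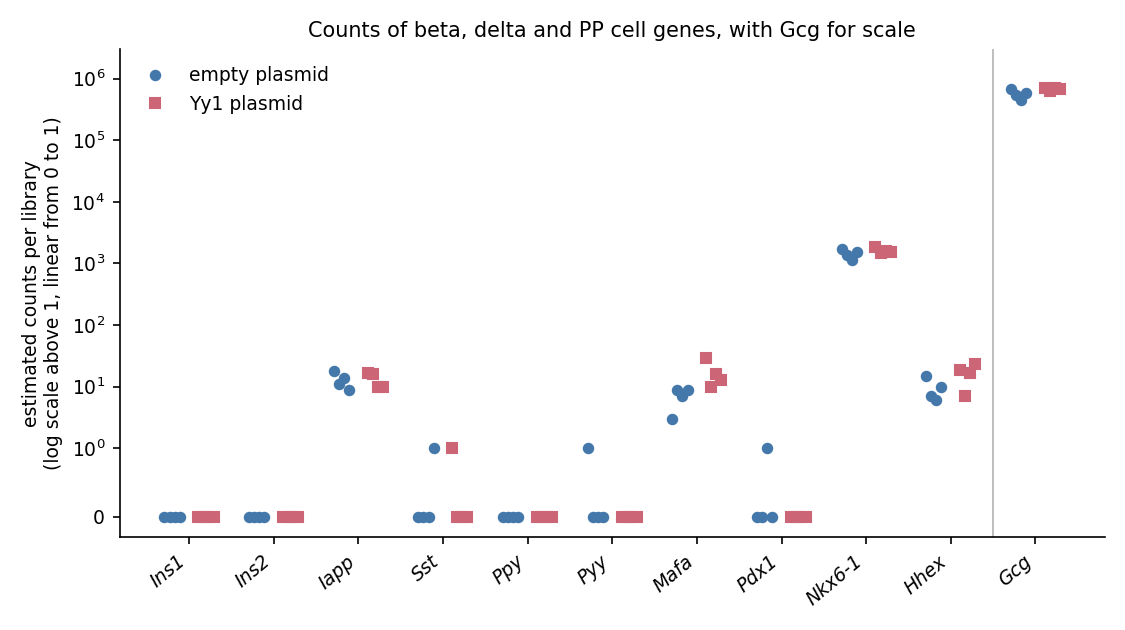
Estimated counts of the 10 genes and of Gcg in each library (vertical axis, logarithmic above 1 and linear from 0 to 1). Circles are the 4 empty plasmid libraries and squares the 4 Yy1 plasmid libraries. Ins1, Ins2 and Ppy sit at 0 in all 8, Sst, Pyy and Pdx1 reach at most 1, and Nkx6-1 lies between 1157 and 1875.

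Iapp (ENSMUSG00000041681) was the 1 hormone gene of the group with counts in every library. Amylin is packed into the insulin granule and slows gastric emptying. Iapp had 18, 11, 14 and 9 counts with the empty plasmid, or 0.584, 0.414, 0.686 and 0.322 CPM in the order of the sample numbers. With the Yy1 plasmid it had 17, 16, 10 and 10 counts, or 0.521, 0.539, 0.301 and 0.314 CPM. The groups overlapped over most of their range. The means were 0.502 ± 0.164 and 0.419 ± 0.129 CPM (SD, n = 4). Between the groups the log2 fold change was -0.25 (SE 0.363), with an adjusted p of 0.997 by edgeR's quasi-likelihood test. Its 95% interval ran from -1 to 0.51. On log2(CPM + 1), the two-sided p by exact permutation was 0.429. The spread within groups was close to that of counting alone (chi-square per degree of freedom 1.31). No 31-base word of the Iapp transcripts occurs in another gene of the older release. Set against the hormone of the cell, Iapp had 23.2 counts per 1000000 Gcg counts in the empty plasmid group and 19.5 in the Yy1 plasmid group. Npy, a peptide gene of the same family as Ppy and Pyy, had a level per kb of 2.17 ± 0.317 CPM, above Iapp with 0.548 ± 0.171 CPM (SD over 8 libraries) in 8 of 8 libraries.

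Of the 4 factors, Nkx6-1 (ENSMUSG00000035187) was the one clearly expressed. This homeodomain factor is needed to form beta cells and to keep alpha cell genes off in them. It stood at 56.1, 52.1, 56.7 and 54.1 CPM with the empty plasmid, from 1157 to 1729 counts a library. With the Yy1 plasmid it stood at 57.5, 50.2, 48.0 and 48.5 CPM. Yy1 plasmid 45 was the highest of all 8 libraries, while the other 3 lay below all 4 empty plasmid libraries. The means of 54.8 ± 2.10 and 51.0 ± 4.41 CPM (SD, n = 4) differed by a log2 fold change of -0.10 (SE 0.0540, 95% interval from -0.21 to 0.01), which did not pass the test (edgeR unadjusted p = 0.0756, adjusted p = 0.937). The two-sided exact permutation p was 0.171. Without Yy1 plasmid 45 the log2 fold change was -0.16 (SE 0.0488; edgeR unadjusted p = 0.00295, adjusted p = 0.297), and the gene remained uncalled. That was the smallest p of the edgeR fits with a single library left out. Without empty plasmid 32 the unadjusted p was 0.0436. In the rest of these fits it ran from 0.0904 (without empty plasmid 34) to 0.229 (without Yy1 plasmid 47). With all 8 libraries it was 0.106 by DESeq2 and 0.0876 by limma-voom. With odd or even sample number added to the edgeR fit the unadjusted p was 0.0477 and the adjusted p 0.758.

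Per kb of its longest transcript, Nkx6-1 had a level of 16.9 ± 1.2 CPM (SD over 8 libraries), rank 4099 of 28127 genes. That was above Insm1 (10.1 ± 0.688), a factor of endocrine cell formation, in 8 of 8 libraries. It was within the spread of Rfx6 (17.4 ± 0.667), a factor of all islet endocrine cells, which was lower in 3 of 8 libraries. With the shortest coding transcript as the length, Rfx6 stood at 22.5 CPM per kb and Nkx6-1 again at 16.9. The mean of Rfx6 was thus the higher with either length, and only the nearness of their levels rests on the choice of transcript. Rfx6 and Nkx2-2 were picked for this comparison outside the rule for names. Nkx2-2 (48.1 ± 2.43), Neurod1 (89.3 ± 2.94) and Isl1 (174 ± 5.08), which alpha and beta cells share, were higher in 8 of 8. The second member by level per kb was Iapp, followed by Mafa with 0.147 ± 0.0822 CPM per kb and Hhex with 0.110 ± 0.0440 CPM per kb. Mafa and Hhex were not told apart by their spread, since Mafa was the higher in 6 of 8 libraries and the ranges overlapped. With the shortest coding transcript as the length, Hhex stood at 0.301 CPM per kb, above the 0.147 of Mafa, so the order of these 2 rests on the choice of transcript. Sst, Pyy and Pdx1 followed at 0.0115, 0.00731 and 0.00284 CPM per kb, each resting on 1 or 2 counts and not separable from the genes at 0.

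**Figure D2:**
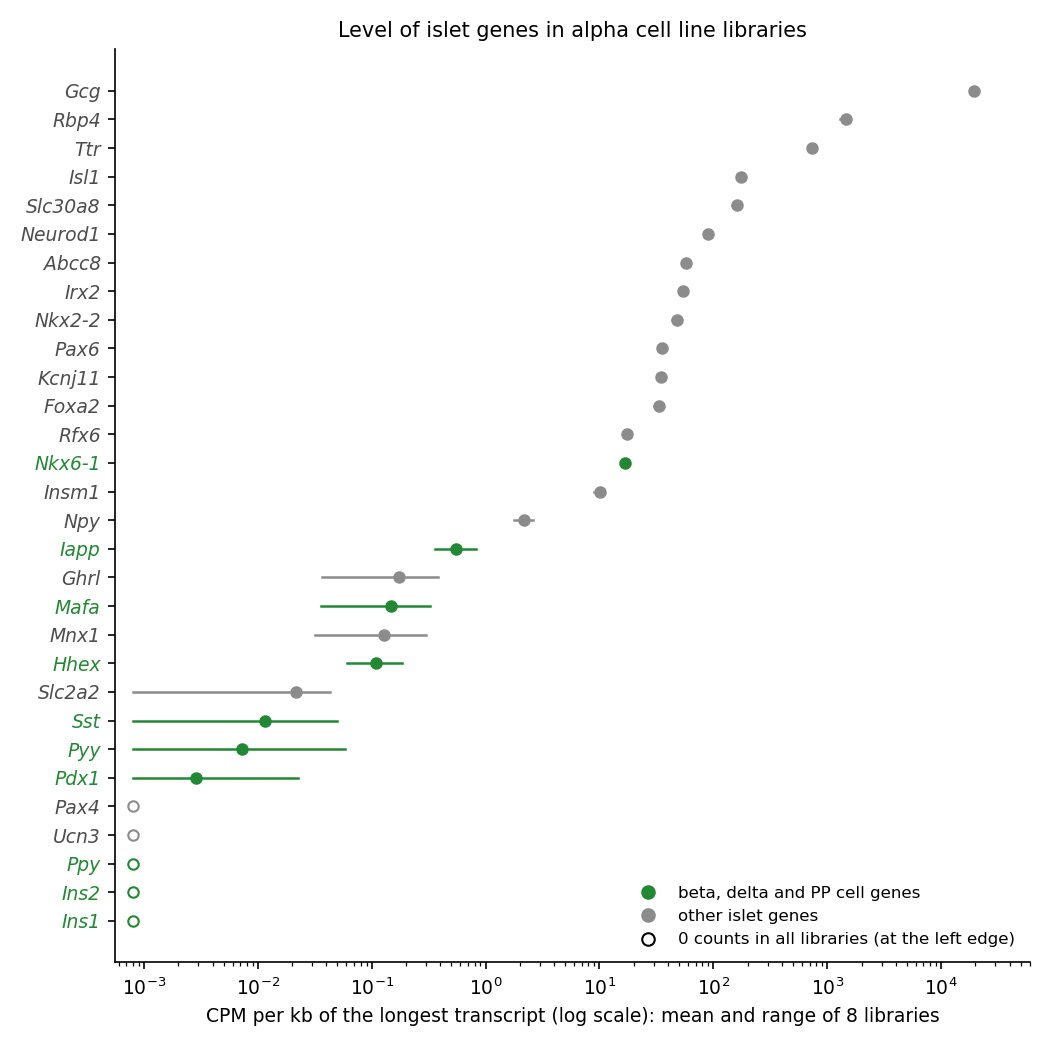
Level of the 10 genes (green) and of other islet genes (grey) in CPM per kb of the longest transcript, on a logarithmic axis. Points are means and lines the range over 8 libraries, drawn from the left edge where a library had 0 counts, and open points are genes with 0 counts in all. Nkx6-1 lies among the endocrine factors with a mean of 16.9, and the other 9 members lie at 0.548 or lower.

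Pdx1 (ENSMUSG00000029644), the factor that sets up the pancreas and drives insulin transcription, was all but absent. It had 1 count, in empty plasmid 33, and 0 in the other 7 libraries. With the Yy1 plasmid its 0 counts allow up to 0.0289 CPM for the pooled group at the exact 95% Poisson limit. Mafa and Iapp stood at 0.529 and 0.419 CPM in that group, above this limit.

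Mafa (ENSMUSG00000047591), an insulin gene activator of mature beta cells, had the largest fitted difference of the 4 members that were tested. It had 3, 9, 7 and 9 counts with the empty plasmid, or 0.0974, 0.339, 0.343 and 0.322 CPM. With the Yy1 plasmid it had 29, 10, 16 and 13 counts, or 0.889, 0.337, 0.481 and 0.408 CPM. Yy1 plasmid 45 was the highest and empty plasmid 31 the lowest library, and the groups overlapped between 0.337 and 0.343 CPM. The means were 0.275 ± 0.119 and 0.529 ± 0.248 CPM (SD, n = 4), and the log2 fold change was 0.98 (SE 0.430, 95% interval from 0.09 to 1.87). The edgeR test gave an unadjusted p of 0.0330 and an adjusted p of 0.854, so Mafa was not called, and the two-sided exact permutation p was 0.0857. The spread within groups exceeded that of counting (chi-square per degree of freedom 2.61).

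The difference in Mafa rested on its 2 extreme libraries. Without empty plasmid 31 the log2 fold change was 0.66 (SE 0.431; edgeR unadjusted p = 0.142, adjusted p = 0.943), and without Yy1 plasmid 45 it was 0.60 (SE 0.459; edgeR unadjusted p = 0.203, adjusted p = 0.949). Without both, a comparison chosen after seeing the data, Mafa did not pass the filter on low counts and was not tested. Mafa also entered the test mainly through the group in which it was higher, since 4 Yy1 plasmid but only 2 empty plasmid libraries reached the 0.332 CPM that the filter asks of 4 libraries. Other rare transcripts differed in their counts in Yy1 plasmid 45. It held 22 counts of Mnx1, a beta cell factor, against 2 to 11 elsewhere, and 25 of Ffar1, a fatty acid receptor, against 8 to 13. It also held 14 of Col3a1, a fibroblast collagen, against at most 2 in 6 of the other libraries and 12 in empty plasmid 31. In contrast Slc2a2 had 0 counts there, its lowest library, and Lyz2, a gene of myeloid cells, had 4 against 34 in Yy1 plasmid 47. These 5 genes were chosen after their values were seen, and their part in the value of Mafa was not tested. Among 2599 tested genes with an average log2 CPM under 0, 110 (4.23%) had a log2 fold change at least as large in size as that of Mafa.

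Hhex (ENSMUSG00000024986), the homeodomain factor of delta cells, was at a similar trace level. It had 15, 7, 6 and 10 counts with the empty plasmid, or 0.487, 0.264, 0.294 and 0.358 CPM. With the Yy1 plasmid it had 19, 7, 17 and 23 counts, or 0.583, 0.236, 0.512 and 0.721 CPM. Yy1 plasmid 48 was the highest library and Yy1 plasmid 46 the lowest, so the groups overlapped fully at the lower end. The means of 0.351 ± 0.0990 and 0.513 ± 0.204 CPM (SD, n = 4) gave a log2 fold change of 0.53 (SE 0.383, 95% interval from -0.27 to 1.32; edgeR adjusted p = 0.978; two-sided exact permutation p = 0.257). Of the 31-base words in its coding transcripts 2.81% occur in other genes of the older release, 1100 of them, so its few counts are uncertain. For Nkx6-1 and Mafa that share was 0.290% and 0.0369%.

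**Figure D3:**
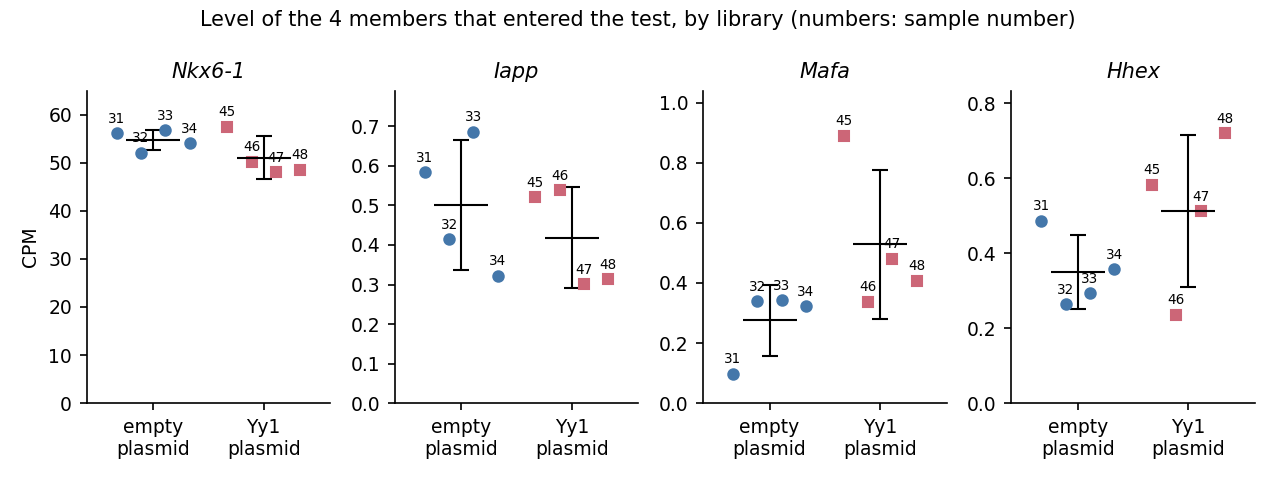
CPM of Nkx6-1, Iapp, Mafa and Hhex in each library, labelled by sample number, with the mean and SD of each group of 4 (bars). Each vertical axis starts at 0 and has its own scale. The groups overlap for all 4 genes, and Mafa is highest in Yy1 plasmid 45 (0.889) and lowest in empty plasmid 31 (0.0974).

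In all, 4 of the 10 members passed the filter on low counts, and edgeR called 0 of them at an adjusted p under 0.05. Over all 15916 tested genes it called 82, or 0.515%, with 79 higher (0.496%) and 3 lower (0.0188%) in the Yy1 plasmid libraries. An unadjusted p under 0.05 was found for 1 of the 4, Mafa, against 5.42% of all tested genes, and DESeq2 and limma-voom also called 0 members. The libraries of the groups did not overlap for 0 of the 4, against 3.95% of all tested genes, or 2.37% with the Yy1 plasmid libraries higher. With so few members tested, these counts cannot be read against the shares of all genes. The other 6 members did not pass the filter. Ins1, Ins2 and Ppy had no counts to compare, and for Sst, Pyy and Pdx1 the two-sided exact permutation p was 1. With no filter on low counts edgeR tested 7 members and called 0.

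The rest of the beta cell program was split between present and absent genes. Genes of glucose-coupled secretion that alpha cells also use were abundant. Slc30a8, the zinc transporter of the hormone granule, stood at 308 ± 14.9 and 321 ± 11.3 CPM, and Abcc8, a subunit of the ATP-sensitive potassium channel, at 287 ± 10.3 and 276 ± 3.63 CPM (SD, n = 4). Prlr, the prolactin receptor, stood at 179 ± 20.5 and 180 ± 11.4 CPM (SD, n = 4). In contrast Ucn3, a peptide of mature beta cells, and Pax4, a factor of beta cell development, had 0 counts in all libraries. Slc2a2, the glucose transporter GLUT2, had 29 counts in all, 13 with the empty and 16 with the Yy1 plasmid. These last 3 were named after their values were seen. Of 19 genes in this list 12 were tested and 0 called, with 7 positive and 5 negative log2 fold changes and a median of 0.0307, beside a median of -0.00249 over all tested genes. The smallest p in the list belonged to Kcnj11, the pore of the same potassium channel (log2 fold change -0.06, SE 0.0380), and to Npy (0.35, SE 0.210), with edgeR adjusted p of 0.947 for both. The libraries of these 2 of the 12 genes did not overlap between the groups, against 3.95% of all tested genes.

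Delta cell genes other than the hormone were partly present. Rbp4, the retinol carrier that is abundant in delta cells, stood at 1685 ± 131 and 1737 ± 66.2 CPM (SD, n = 4), rank 18 of 28127 per kb, in cells with 2 counts of Sst in all. Ghsr, the ghrelin receptor, stood at 20.2 ± 1.34 and 21.8 ± 0.742 CPM, and Casr, the calcium sensing receptor, at 10.8 ± 1.07 and 11.2 ± 1.33 CPM (SD, n = 4). Of 5 genes in the list of delta, PP and epsilon cells 3 were tested and 0 called, and the log2 fold changes of these 3 ran from 0.04 to 0.11. Ghrl, the ghrelin gene of epsilon cells, had 37 counts in all, 14 with the empty and 23 with the Yy1 plasmid, and did not pass the filter. It was named after its values were seen.

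The receptors for the hormones of the other islet cells were measured in the same libraries. Insr, the insulin receptor, stood at 50.6 ± 2.77 and 51.8 ± 1.31 CPM, and Sstr3, a somatostatin receptor, at 33.7 ± 1.30 and 33.5 ± 0.796 CPM (SD, n = 4). Calcr binds amylin when paired with a Ramp protein. Its levels were 117 ± 10.2 and 127 ± 3.42 CPM (SD, n = 4), with a log2 fold change of 0.12 (SE 0.0503) and an adjusted p of 0.803 in edgeR. Those of Ramp2, of the Ramp family, were 2.74 ± 0.381 and 2.10 ± 0.398 CPM (SD, n = 4), with a log2 fold change of -0.39 (SE 0.174) and an adjusted p of 0.866 in edgeR. Ramp1 had 7 counts in all, and Ramp3 had 21 with the empty and 39 with the Yy1 plasmid. Neither Ramp1 nor Ramp3 passed the filter. Npy1r, which binds peptide YY, stood at 19.9 ± 1.31 and 20.3 ± 1.36 CPM (SD, n = 4). Npy4r, the receptor for pancreatic polypeptide, had 1 count in all and Npy2r, a second receptor for peptide YY, had 0. Npy1r, Npy4r, Npy2r, Ramp1 and Ramp3 were named after their values were seen. Of 15 receptor genes 6 were tested, 2 had an unadjusted p under 0.05 (5.42% of all tested genes) and 0 were called, with 3 positive and 3 negative log2 fold changes and a median of 0.0136.

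Genes that serve all islet hormones did not pass the test either. Isl1 (439 ± 18.8 and 434 ± 3.58 CPM), Neurod1 (247 ± 7.24 and 241 ± 8.87 CPM) and Pax6 (158 ± 9.67 and 157 ± 1.6 CPM; SD, n = 4) led the 7 shared factors, all of which were tested and 0 called. In that list Foxa2 (log2 fold change -0.07, SE 0.0481) and Insm1 (-0.07, SE 0.0608) had the smallest p, with edgeR adjusted p of 0.954 and 0.980. Among the 6 genes of prohormone processing, which cuts and amidates the precursors, 0 were called. Pcsk2, the convertase that makes glucagon, stood at 2818 ± 37.7 and 2888 ± 53.8 CPM, and Pcsk1, the convertase that proinsulin also needs, at 1.07 ± 0.312 and 1.26 ± 0.441 CPM (SD, n = 4). Pcsk1 was picked outside the rule for names. Over these lists, 33 of 51 distinct genes were tested, with 18 positive and 15 negative log2 fold changes, and the smallest edgeR adjusted p was 0.803. An unadjusted p under 0.05 was found for 2 of the 33, near the 5.42% of all tested genes.

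**Figure D4:**
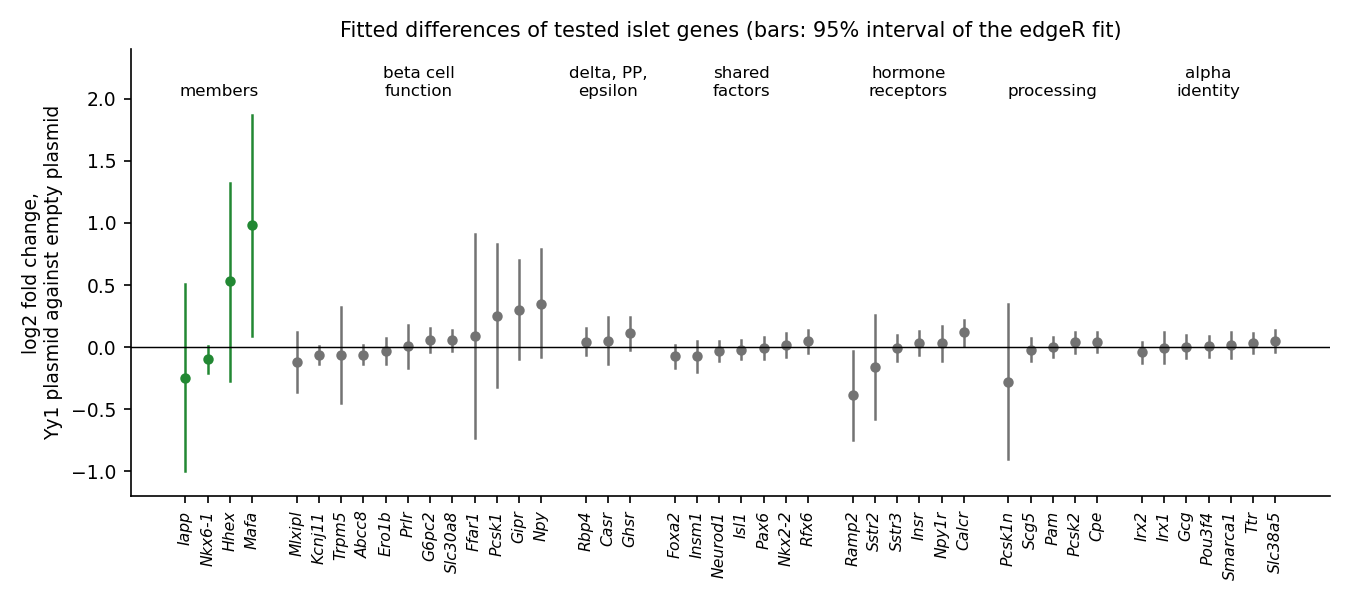
Fitted log2 fold change, Yy1 plasmid against empty plasmid, of tested genes in the lists of islet genes, with the 95% interval of the edgeR fit (bars). The 4 members are green. Iapp, Hhex and Mafa have wide intervals, as their counts are few, while that of Nkx6-1 runs from -0.21 to 0.01.

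Markers of other cell types were present at low levels, and 0 of the 8 that were tested were called. The summed level of the 11 acinar genes ran from 8.37 to 9.03 CPM in the empty plasmid libraries and from 9.22 to 10.3 CPM in the Yy1 plasmid libraries, with no overlap. That of the 7 duct genes overlapped, from 17.7 to 20.4 CPM and from 20 to 23.1 CPM, as did that of the 12 stromal, endothelial and immune genes, from 1.47 to 2.92 CPM and from 2.13 to 3.16 CPM. Sox9, a factor of ducts and progenitors, had means of 3.95 ± 0.402 and 4.76 ± 0.462 CPM (SD, n = 4), and its adjusted p in edgeR was 0.890 for a log2 fold change of 0.27 (SE 0.125). Spp1, which encodes osteopontin, had means of 5.29 ± 0.363 and 6.19 ± 0.841 CPM (SD, n = 4), and its adjusted p in edgeR was 0.911 for a log2 fold change of 0.23 (SE 0.114). Cd68, a macrophage gene, had means of 1.14 ± 0.125 and 0.812 ± 0.103 CPM (SD, n = 4), and its adjusted p in edgeR was 0.909 for a log2 fold change of -0.50 (SE 0.240). Of these 8 tested genes the groups did not overlap for 3 (Sox9, Spp1 and Cd68), against 3.95% of all tested genes, or 2.37% with the Yy1 plasmid libraries higher. Ptprc, a leukocyte gene that did not pass the filter, did not overlap either, with 2, 5, 2 and 2 counts against 19, 17, 9 and 10, and it was named after its values were seen. All 4 tested duct genes and both tested acinar genes had positive log2 fold changes, and 0 were called. Over all 15916 tested genes, 7730 were positive and 8186 negative, and so few markers cannot be read against those shares. Whether the markers of other cell types had a part in the differences of Mafa and Hhex was not tested.

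The genes whose levels varied most like a member over the 8 libraries were looked up for the 2 members with the highest level, among genes with an average log2 CPM of at least 2. For Nkx6-1 they were Zrsr2, Scnm1 and Ccdc85b, each with a Pearson r of 0.94 out of 10228 genes compared. For Iapp they were Eif3m (r = 0.96), Bicdl1 (0.95) and Cir1 (0.94). These are descriptions over 8 libraries of unequal depth, and the largest r among so many genes is high by selection.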

How the data were processed

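Poly(A) RNA was made into strand-specific libraries, per the labels' protocols. Tools named per the submitters' processing notes are fastp and kallisto, with the build GRCm39 and no versions. The authors deposited expected counts per Ensembl gene, not scaled for depth, of which 17.5% were fractional; they were rounded to whole numbers. No column was unused (0). Symbols for 48278 of 75078 genes, and transcript lengths, came from GENCODE mouse release 21, of an older build, and no coordinates were taken from it. Promoter windows and their coordinates are RefSeq's, of build GRCm38.p6. Counts were filtered (filterByExpr: minimum count 10, total 15), TMM-scaled and tested with edgeR 4.0.16 (glmQLFit, glmQLFTest, robust) in R 4.3.3. Tests were two-sided, adjusted by Benjamini and Hochberg's method over 15916 genes with a threshold of 0.05. Standard errors are the log2 fold change divided by the square root of F, and intervals at 95% use edgeR's degrees of freedom. Single values were compared by exact permutation over 70 arrangements. The edgeR step was tested on simulated data, with changes planted only in genes of a higher average level than Iapp, Mafa and Hhex. That simulation therefore does not show how well changes in such low genes would be found. Replicate pairs differed by more than sampling noise (chi-square per degree of freedom from 2.92 to 13.9).

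The members and lists were chosen with earlier results of these data known. The rule for names took the 10 members, Yy1, Gcg, and from each list the 3 genes of highest CPM and the 2 of smallest p, and, for the 2 most abundant members, the 3 genes of most similar pattern. Alternatives were RLE, upper-quartile or no scaling, Yy1 left out before scaling, other filters, DESeq2 1.42.0, limma-voom (limma 3.58.1), a term for odd against even sample numbers, other pseudocounts and lengths, and each library left out. Leaving out empty plasmid 31 with Yy1 plasmid 45 was added after seeing the data. Some genes of the lists are counted but not reported here by name.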

Additional observations from a re-analysis of the deposited data

Results flagged for a closer look

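In groups of 4 libraries, a library was marked where its gap to the nearest other took up more of the range of the group than Dixon's 95% limit for 4 values, which chance gives in about 1 of 20 groups. Of 48 groups checked over the members and the other genes with a fold change, 4 were marked. Mafa was far below the other 3 empty plasmid libraries in empty plasmid 31, with 0.0974 CPM, a value that rests on 3 counts. Cpe, the carboxypeptidase of hormone granules, was apart in Yy1 plasmid 45, at 714 CPM. Cela1, an elastase, and Spp1 were apart in Yy1 plasmid 46, at 6.97 and 7.44 CPM.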

How the results depend on the processing

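The number of members called was 0 under every alternative run, as was that of the other islet genes. Of all tested genes 82 were called, 174 with no filter on low counts, 54 with the filter of 1 CPM in 4 libraries, and 65 to 87 with single libraries left out. The 4 tested members kept their signs throughout. With single libraries left out, the log2 fold change ran from 0.60 to 1.13 for Mafa, from 0.32 to 0.75 for Hhex, from -0.41 to -0.086 for Iapp and from -0.16 to -0.073 for Nkx6-1. Only Nkx6-1 passed the filter of 1 CPM. Among the other named genes, the sign of Gcg turned in 4 such fits (-0.006 without empty plasmid 32, -0.0076 without 34, -0.0071 without Yy1 plasmid 45 and -0.0014 without 48; range -0.0076 to 0.015) and that of Rbp4 in 1 (-0.0099 without empty plasmid 33; range -0.0099 to 0.07), and these values lie within their errors. The level of Hhex was 0.301 CPM per kb with its shortest coding transcript, by construction of that length. The number of members with a permutation p under 0.05 was 0 with each pseudocount. No paired analysis was possible because the groups share no sample numbers. Depth limits the 6 members with 2 counts or fewer to an upper bound.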
